A study of Homo sapiens with 6 samples.

Results

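The desmosome is the cell-cell junction that ties the keratin filaments of neighbouring epithelial cells together, and 10 of its transcripts were examined here in 21NT breast cells that overexpress the transcription factor TBX3. The 10 genes were taken by symbol from the 20824 genes of the deposited table and were all found: the desmosomal cadherins *DSC2*, *DSC3*, *DSG2* and *DSG3*, the plaque proteins *DSP* and *JUP*, the plakophilins *PKP1*, *PKP2* and *PKP3*, and the membrane protein *PERP*. 21NT is an established line used as a model of ductal carcinoma in situ (DCIS), a breast cancer stage that has not yet invaded. The cells were stably transfected with the empty pcDNA3.1 vector (EV), with the same vector carrying TBX3iso1, or with the vector carrying TBX3iso2, the splice isoforms of TBX3, and 2 mRNA libraries were sequenced per line. All 3 lines, EV included, went through transfection and G418 selection, and each line is a pool of resistant clones. The 2 libraries of a line are therefore replicates of 1 transfected pool, and whether they come from separate cultures is not given in the sources used here, so that SDs and p-values cover the spread between these libraries, which may be technical.

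In a desmosome, desmogleins and desmocollins bind across the gap between cells through their extracellular parts. Inside the cell their tails hold plakoglobin and the plakophilins, and desmoplakin links these to the keratins. Luminal breast cells use mainly the broadly expressed desmoglein 2 and desmocollin 2, while desmoglein 3, desmocollin 3 and plakophilin 1 belong to stratified and basal epithelium. Loss of desmosomes is part of the textbook picture of epithelial-mesenchymal transition (EMT), the programme the study examined in these cells, and the question here is which desmosomal transcripts differed between EV and the isoform lines.

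The answer differed from gene to gene. *JUP* was lower with both isoforms, *DSP* was lower with TBX3iso2, *PERP* was higher with TBX3iso1 alone of the isoforms and *PKP1* rose from a level near 0, while *DSG2* and *PKP3* passed no threshold. *DSC2* with TBX3iso1 passed by adjusted p when the replicate number was a block in the model, as did *DSP* and *PKP2* with TBX3iso1. Values are RPKM, reads scaled to the transcript's length and to the library's alignments, so that levels of genes can be set side by side, and errors are SD with n = 2. Fold changes are on the scale of log2(RPKM + 0.1), from limma fitted to 12805 genes whose average over the libraries reached 0.5 RPKM, and adjusted p-values are limma's with Benjamini-Hochberg adjustment over those genes. A transcript is said to have changed at an adjusted p under 0.05, and to be differentially expressed where the change was also over 1.5-fold, 0.58 on the log2 scale.

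The libraries held from 43176600 to 54512400 alignments. *TBX3*, totalled over both isoforms, ranged from 8.24 to 8.52 RPKM for EV, from 11.4 to 13.1 RPKM for TBX3iso1 and from 15.5 to 17.5 RPKM for TBX3iso2. Both isoform lines were above EV, as the labels give. The log2 fold change was 0.54 with TBX3iso1 (adjusted p = 0.00378), under 1.5-fold, and 0.97 with TBX3iso2 (adjusted p = 0.000257). The isoform lines differed in *TBX3* by 0.43 (adjusted p = 0.0275). The part of this difference in later contrasts between the isoforms was not tested. The 8 epithelial markers were present apart from *KRT14* (at most 0.0398 RPKM), with a summed level of 2256 to 2330 RPKM for EV, 1814 to 2004 for TBX3iso1 and 2104 to 2351 for TBX3iso2. *KRT18*, *KRT8* and *KRT19* made up most of that sum, beside *EPCAM* (165 to 232 RPKM) and *CDH1* (84.4 to 148 RPKM). *KRT17* was at 5.08 to 8.59 RPKM, and changed with TBX3iso2 (0.55, adjusted p = 0.00593) but not with TBX3iso1 (0.02, adjusted p = 0.915). Of the other cell types checked, the summed level of 6 fibroblast markers was 4.60 to 4.86 RPKM for EV, 8.12 to 8.69 for TBX3iso1 and 7.14 to 7.58 for TBX3iso2, nearly all of it *COL1A1*. That of 4 endothelial markers was 7.37 to 7.73, 1.34 to 1.36 and 1.26 to 1.46 RPKM, mostly *PECAM1*, with *CDH5* and *VWF* at most 0.0830 RPKM. That of the 4 white blood cell markers in the table was 9.51 to 10.8, 2.26 to 2.62 and 2.30 to 2.58 RPKM, almost wholly *CD14*, with *PTPRC* at most 0.0102 RPKM and *CD3E* at 0 in 5 libraries. The part of these sums in the desmosomal results was not tested.

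**Figure D1:**
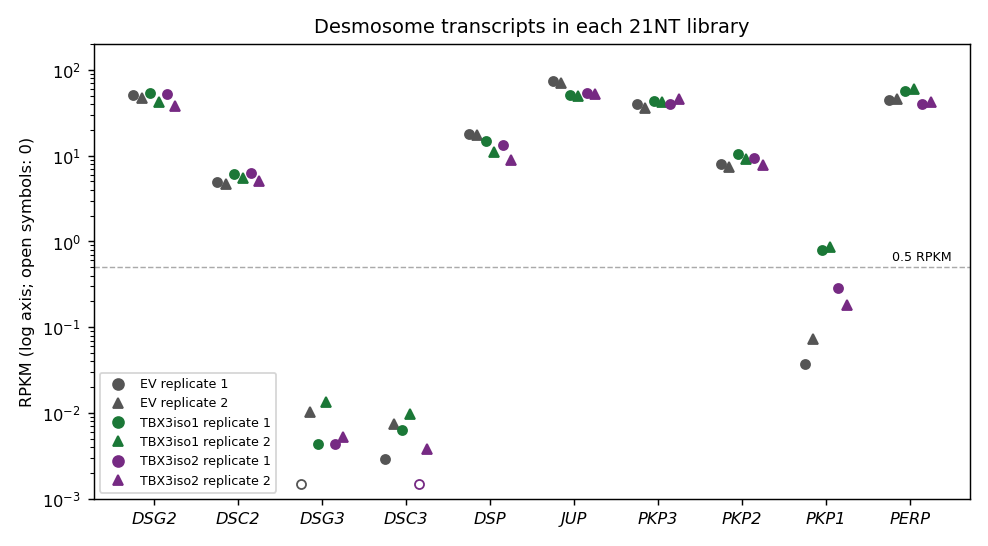
RPKM of the 10 desmosome transcripts (log axis) in each of the 6 libraries, coloured by line, with circles for replicate 1, triangles for replicate 2, open symbols for values of 0 and a dashed line at 0.5 RPKM, the mean a gene needed to be tested. *JUP*, *DSG2*, *PERP* and *PKP3* lie near the top, *DSC3* and *DSG3* near 0 in all libraries, and *PKP1* is separated by line.

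The levels of the 10 transcripts in EV ranged widely. *JUP* stood highest, at 72.5 ± 3.54 RPKM and above 96.0% of all genes in the table. It was followed by *DSG2* (49.0 ± 2.89 RPKM), *PERP* (45.0 ± 0.527 RPKM) and *PKP3* (37.6 ± 2.71 RPKM). The EV libraries of neighbours in this order did not overlap, although *DSG2* (46.9 to 51.0 RPKM) and *PERP* (44.6 to 45.3 RPKM) lay close together. *DSP* was at 17.5 ± 0.478 RPKM, *PKP2* at 7.76 ± 0.467 RPKM and *DSC2* at 4.82 ± 0.191 RPKM. *PKP1* (0.0555 ± 0.0257 RPKM), *DSC3* (0.00522 ± 0.00322 RPKM) and *DSG3* (0.00516 ± 0.00730 RPKM) stood above 23.4%, 9.66% and 9.59% of the genes in the table, and the last pair could not be ordered within their spread. The mean levels with the isoforms kept the same 3 transcripts at the bottom, whereas at the top *PERP* (58.0 ± 1.62 RPKM) stood above *JUP* (50.0 ± 0.686 RPKM) with TBX3iso1.

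The desmosomal cadherins are encoded side by side on chromosome 18, where the 7 genes *DSC3*, *DSC2*, *DSC1*, *DSG1*, *DSG4*, *DSG3* and *DSG2* occupy 560 kb, from 28569331 to 29128971 of GRCh37. Only the genes *DSC2*, inside the cluster, and *DSG2*, at its end, had more than 0.05 RPKM in any library. *DSC3* was between 0 and 0.00988 RPKM and *DSG3* between 0 and 0.0136 RPKM over the 6 libraries. Their values were whole multiples, within 3%, of the smallest value once the number of alignments was taken into account, and reached 3 such steps at most, so that no difference between lines was detectable at this depth. *DSC1* reached 0.0425 RPKM in an EV library, and *DSG1* and *DSG4* were above 0 in 1 library each. *B4GALT6*, the next gene of the table beyond *DSG2*, was at 4.03 to 6.12 RPKM.

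**Figure D2:**
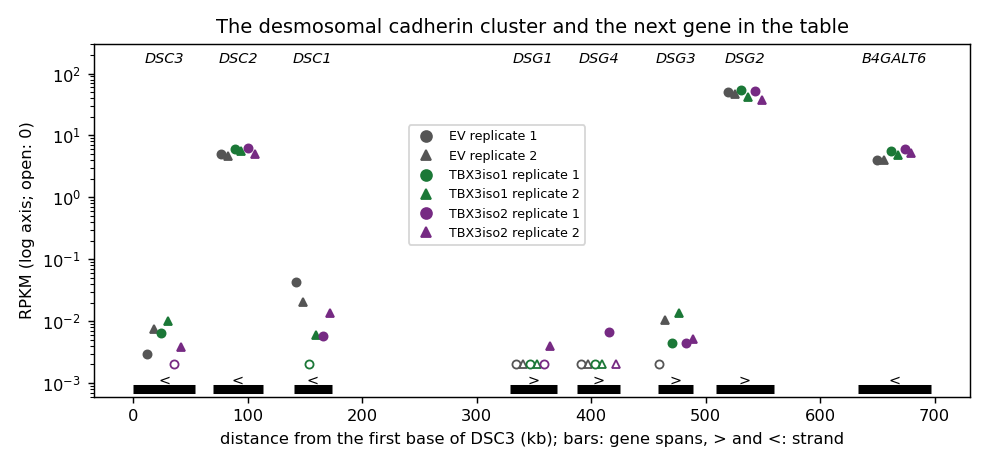
RPKM (log axis) of the 7 desmosomal cadherin genes and the next gene of the table, *B4GALT6*, in each library, against distance from the first base of *DSC3* in kb, with bars for gene spans, arrowheads for the strand and open symbols for 0. *DSG2* and *DSC2* are the cluster's genes with more than 0.05 RPKM, and the libraries of the 3 lines are mixed at *DSG2*.

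*DSG2*, which encodes the desmoglein of simple epithelia (chr18:29078140-29128971, plus strand), was 51.0 and 46.9 RPKM in the EV libraries, 54.1 and 41.7 RPKM in those of TBX3iso1, and 52.0 and 37.6 RPKM in those of TBX3iso2. The lines overlapped, and the replicates of each isoform line lay further apart than the means of any pair of lines. Its log2 fold change was -0.04 with TBX3iso1 (95% confidence interval -0.44 to 0.35, adjusted p = 0.858) and -0.15 with TBX3iso2 (-0.54 to 0.25, adjusted p = 0.514). *DSC2*, its desmocollin partner (chr18:28638806-28682485, minus strand), was 4.96 and 4.69 RPKM in EV, 6.04 and 5.56 RPKM in those of TBX3iso1, and 6.23 and 5.04 RPKM in those of TBX3iso2. All 4 isoform libraries were above both EV libraries. The log2 fold changes of 0.26 (-0.02 to 0.54, adjusted p = 0.110) and 0.21 (-0.06 to 0.49, adjusted p = 0.179) did not pass, although with the replicate number as a block the TBX3iso1 value had an adjusted p of 0.0348. *DSG2* made up 91.0% ± 0.177 of the summed cadherin RPKM in EV, 89.1% ± 1.23 with TBX3iso1 and 88.7% ± 0.807 with TBX3iso2, and the sum itself was 53.8 ± 3.07, 53.7 ± 9.10 and 50.5 ± 11.1 RPKM.

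*JUP* encodes plakoglobin, the plaque protein that binds the cadherin tails and also serves adherens junctions (chr17:39910856-39943183, minus strand). It was 75.0 and 70.0 RPKM in the EV libraries, 50.5 and 49.6 RPKM in those of TBX3iso1, and 53.4 and 52.3 RPKM in those of TBX3iso2. Every isoform library lay below both EV libraries, and the replicates of each isoform line differed by about 1 RPKM. *JUP* fell by 0.53 on the log2 scale with TBX3iso1 (standard error 0.0718, adjusted p = 0.000939) and had a log2 fold change of -0.46 with TBX3iso2 (adjusted p = 0.00187). Both changes were under 1.5-fold (ratios of the means 0.690 and 0.729), and the difference between the isoforms was 0.08 (-0.09 to 0.25, adjusted p = 0.509). In RNA of a whole culture, fewer cells that express a gene and less of its RNA per cell cannot be told apart.

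*DSP* encodes desmoplakin, the link from the plaque to keratin (chr6:7541571-7586947, plus strand). It was 17.9 and 17.2 RPKM in EV, 14.7 and 11.1 RPKM in those of TBX3iso1, and 13.4 and 9.0 RPKM in those of TBX3iso2. All isoform libraries were below EV, and in all 3 lines replicate 2 was the lower. *DSP* was differentially expressed with TBX3iso2, with a log2 fold change of -0.67 (standard error 0.191, 95% confidence interval -1.11 to -0.22, adjusted p = 0.0239). With TBX3iso1 the value was -0.45 (-0.90 to -0.01, adjusted p = 0.0897, and adjusted p = 0.00877 with the replicate block), and the isoforms differed by -0.22 (-0.66 to 0.23, adjusted p = 0.495), so that a difference between them was not shown. The TBX3iso2 call was lost in 3 of the 6 fits that left out a library, with values of -0.38 (adjusted p = 0.0687) without TBX3iso2 replicate 2, -0.64 (adjusted p = 0.120) without EV replicate 1 and -0.70 (adjusted p = 0.101) without EV replicate 2, and it was kept in the other 3, at -0.95 (adjusted p = 0.00104) without TBX3iso2 replicate 1. The TBX3iso1 value was -0.65 (adjusted p = 0.0312), past both thresholds, without TBX3iso1 replicate 1 and -0.25 (adjusted p = 0.370) without replicate 2. *DSP* and *JUP* together summed to 90.1 ± 4.02 RPKM in EV, 62.9 ± 3.19 in TBX3iso1 and 64.1 ± 3.88 in TBX3iso2 cells.

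Transcript length moved with the replicates of the isoform lines, and *DSP* is long. Over the 11803 tested genes with an annotated transcript (92.2%), the log2 difference of replicate 2 to replicate 1 had a Spearman correlation with the length of the longest transcript of -0.11 in EV, -0.523 with TBX3iso1 and -0.574 with TBX3iso2, across genes that share the same pair of libraries. For genes of 8000 bases or more the median difference was -0.05 in EV, -0.19 with TBX3iso1 and -0.29 with TBX3iso2, and for those under 2000 bases it was -0.005, 0.16 and 0.18. *DSP* (9697 bases) differed between replicates by -0.06, -0.39 and -0.57, and *DSG2* (5697 bases) by -0.12, -0.37 and -0.47, whereas *JUP* (3505 bases) differed by -0.10, -0.03 and -0.03. *DSC2*, whose longest annotated transcript has 12377 bases, differed by -0.08, -0.12 and -0.30, and its values against EV were above 0. The same split was present between lines: the 1118 long genes had a median log2 fold change against EV of -0.23 with TBX3iso1 and -0.17 with TBX3iso2, and the 2167 short genes one of 0.08 and 0.11. Of the long genes, 27.6% were at or below the value of *DSP* with TBX3iso1 and 11.9% with TBX3iso2. What part of the *DSP* values goes with length was not tested.

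Within a library, *DSP* and *DSG2* moved together from replicate to replicate. The ratio of *DSP* to *DSG2*, one of 6 ratios of members computed and chosen here after its values were seen, was 0.350 and 0.367 in EV, 0.271 and 0.267 with TBX3iso1 and 0.258 and 0.239 with TBX3iso2. The lines did not overlap in it.

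**Figure D3:**
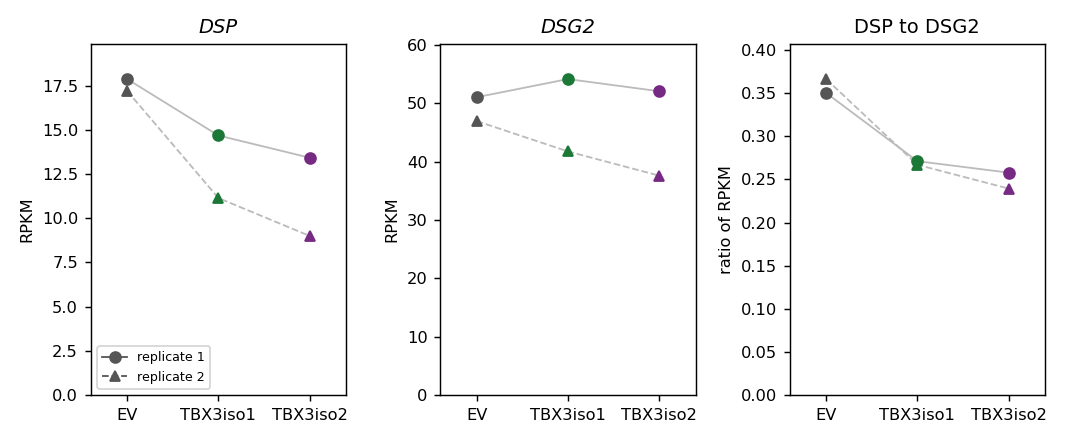
RPKM of *DSP* (left) and *DSG2* (middle) and the ratio of *DSP* to *DSG2* (right) in the 6 libraries, with circles and solid lines for replicate 1 and triangles and dashed lines for replicate 2, all axes starting at 0. Replicate 2 is the lower in both genes in every line, and the ratio is lower in all 4 isoform libraries than in both EV libraries.

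The plakophilins are armadillo-repeat proteins that gather desmoplakin at the plaque and widen it. *PKP3*, the most abundant (chr11:392614-404908, plus strand), was 39.5 and 35.6 RPKM in EV, 42.8 and 42.7 RPKM in those of TBX3iso1, and 40.3 and 45.8 RPKM in those of TBX3iso2. The isoform libraries were all above EV, by 0.19 on the log2 scale in both lines (-0.02 to 0.40, adjusted p = 0.119, and -0.01 to 0.40, adjusted p = 0.111), which did not pass. *PKP2*, the plakophilin of simple epithelia and heart muscle (chr12:32943679-33049732, minus strand), was 8.09 and 7.43 RPKM in EV, 10.5 and 9.18 RPKM in those of TBX3iso1, and 9.47 and 7.72 RPKM in those of TBX3iso2. The TBX3iso1 libraries were above both EV libraries and the TBX3iso2 libraries overlapped them. Its log2 fold change with TBX3iso1 was 0.34 (0.06 to 0.62, adjusted p = 0.0531, and adjusted p = 0.00563 with the replicate block), and with TBX3iso2 it was 0.14 (-0.14 to 0.42, adjusted p = 0.377).

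*PKP1*, the plakophilin of stratified epithelium (chr1:201252580-201302121, plus strand), had the largest relative change of the members. It was 0.0374 and 0.0737 RPKM in EV, 0.805 and 0.856 RPKM in those of TBX3iso1, and 0.290 and 0.181 RPKM in those of TBX3iso2. No library overlapped with one of another line, and the order was TBX3iso1, TBX3iso2, EV. The mean was 15.0 times that of EV with TBX3iso1 and 4.25 times with TBX3iso2. Over the 6 libraries the mean was 0.374 RPKM, under the 0.5 RPKM needed to be tested. Without that filter, over all 20824 genes, the log2 fold change was 2.59 with TBX3iso1 (adjusted p = 0.00300), 1.10 with TBX3iso2 (adjusted p = 0.0238) and -1.49 for TBX3iso2 against TBX3iso1 (adjusted p = 0.0323). All 3 were past both thresholds, as 16.4%, 16.3% and 3.68% of all genes were in these comparisons without the filter. EV lay below the 0.1 RPKM added before the log, so the size depends on it. With 1 RPKM in its place the values were 0.79, 0.23 and -0.57, and with 0.01 RPKM they were 3.74, 1.93 and -1.81, the last with an adjusted p of 0.0726. The rise with TBX3iso1 stayed past both thresholds in the alternatives run, whereas with 1 RPKM added both other values were under 1.5-fold, and both calls were lost in fits that left out 1 library, for TBX3iso2 against EV in all but the one without TBX3iso2 replicate 2 (adjusted p up to 0.133) and between the isoforms in all 6 (up to 0.162). In spite of its rise *PKP1* remained a small share of the summed plakophilin RPKM, 0.125% ± 0.0653 in EV, 1.55% ± 0.0973 with TBX3iso1 and 0.459% ± 0.171 with TBX3iso2, and *PKP3* held 82.8% ± 0.224, 80.0% ± 1.35 and 82.9% ± 3.39.

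*PERP*, a small membrane protein of desmosomes whose gene is a target of p53 and p63 (chr6:138409642-138428556, minus strand), separated the isoforms. It was 44.6 and 45.3 RPKM in EV, 56.8 and 59.1 RPKM in those of TBX3iso1, and 40.0 and 42.6 RPKM in those of TBX3iso2. The TBX3iso1 libraries were above and the TBX3iso2 libraries below EV, with no overlap. *PERP* rose by 0.37 on the log2 scale with TBX3iso1 (standard error 0.0713, adjusted p = 0.00500), while the value with TBX3iso2 was -0.12 (-0.29 to 0.04, adjusted p = 0.191). The isoforms differed by -0.49 in a direct comparison of TBX3iso2 with TBX3iso1 (95% confidence interval -0.66 to -0.32, adjusted p = 0.00536), which was under 1.5-fold. Ordinary linear models gave adjusted p = 0.0521 on log2 and 0.0513 on unlogged RPKM. Summed over the 10 members the desmosomal RPKM was 234 ± 9.72 in EV, 228 ± 11.7 with TBX3iso1 and 208 ± 10.5 with TBX3iso2, and *PERP* made up 19.2% ± 1.02, 25.5% ± 2.01 and 19.9% ± 1.90 of it.

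Of the 10 members, 7 passed the filter on low values, and *DSC3*, *DSG3* and *PKP1* did not. With TBX3iso1, 0 of the 7 were differentially expressed, where 21.5% of all genes tested were. By adjusted p alone 2 of the 7 had changed, *PERP* higher and *JUP* lower (44.8% of all genes), and by unadjusted p under 0.05 there were 4, with *PKP2* higher and *DSP* lower as well (53.6% of all genes). With the replicate block the number by adjusted p was 5, where it was 55.9% of all genes. With TBX3iso2, 1 of the 7 was differentially expressed, *DSP* (21.2% of all genes), and 2 had changed by adjusted p, *DSP* and *JUP*, both lower (45.5% of all genes). Between the isoforms 0 were differentially expressed by limma (6.29% of all genes), and 1 had changed, *PERP*, by adjusted p (14.8% of all genes) as by unadjusted p (30.8%). The members' share lay below that of all genes in each of these counts except the 4 of 7 by unadjusted p and the 5 of 7 with the block, both with TBX3iso1. Ordinary linear models without moderation, on log2 and on unlogged RPKM, gave 0 differentially expressed members in all 3 comparisons. The median log2 fold change of the 7 was 0.19 with TBX3iso1, -0.12 with TBX3iso2 and -0.10 between the isoforms, against -0.05, -0.002 and 0.05 for all genes tested. Both isoform comparisons share the EV libraries.

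**Figure D4:**
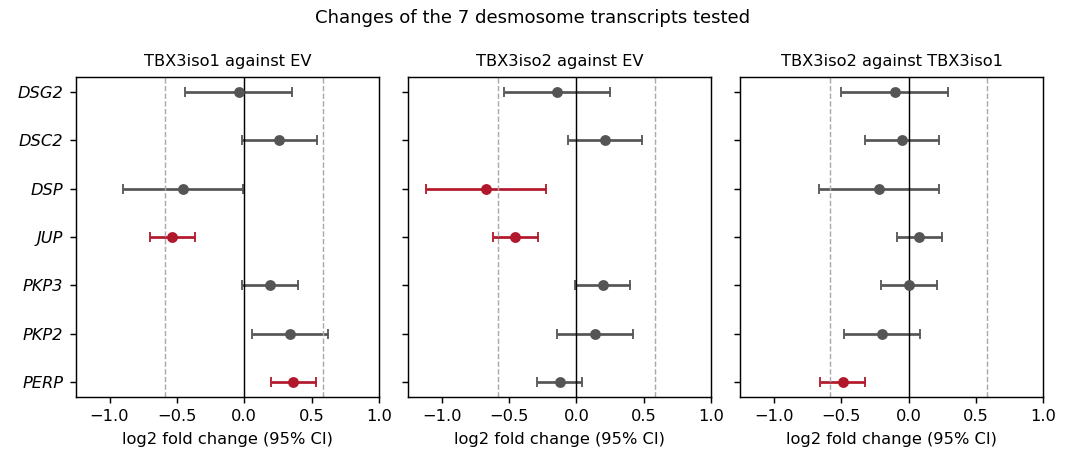
Log2 fold change with 95% confidence interval of the 7 desmosome transcripts tested, for TBX3iso1 against EV (left), TBX3iso2 against EV (middle) and TBX3iso2 against TBX3iso1 (right), with dashed lines at 1.5-fold and red points for an adjusted p under 0.05. *JUP* is lower and red in the comparisons with EV, *DSP* with TBX3iso2 is the single red point past a dashed line, and *PERP* is red with TBX3iso1 and between the isoforms.

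The sequence around the starts of these genes was searched for 2 short motifs: the T-box core GGTGTGA, to which T-box proteins such as TBX3 bind, and the E2-box CAGGTG, to which SLUG, SNAIL and ZEB factors bind. RefSeq promoters of GRCh38.p14, 250 bases before to 50 bases after a start, were at hand for 8 of the members, and *PKP2* and *PKP3* had no entry. Both strands were searched for these exact letters, and the motifs can overlap. The T-box element that the study reports in *SNAI2* does not contain the T-box core as written here, so this search would miss it. Other forms of T-box site were not searched, and a count of 0 for the core does not show that a promoter lacks them. The T-box core was in 0 of the 8 members and in 3.45% of 35116 promoters, and the E2-box was in 4 of the 8, *DSC2*, *DSG2*, *DSP* and *JUP*, in 4 of the 10 windows these 8 genes have, and in 20.6% of all promoters, each counted as a window. Of the members with it, *JUP* was lower with both isoforms and *DSP* with TBX3iso2. *DSG2* (-0.04 with TBX3iso1 and -0.15 with TBX3iso2) and *DSC2* (0.26 and 0.21) did not pass in the main fit. A relation between the motif and the changes was not tested. The share of G and C upstream was 59.6% to 78% in the windows with the E2-box and 42.8% to 78% over the 10 windows. The median of all promoters was 58%, and the part of G and C content in the number of matches was not tested. The matches are shown on the strand of each gene, with the E2-box, or its reverse complement CACCTG, in capitals, at positions matched exactly in GRCh37 and counted from the RefSeq start.
DSP, -178, chr6:7541715-7541744, plus strand: ggcggcgggcgCAGGTGgggaggggcggcc
DSP, -85, chr6:7541808-7541837, plus strand: aagaaaccggcCAGGTGtggcctaggcgcc
JUP, -54, chr17:39942264-39942293, minus strand: gactctggcccCACCTGccgagcaggtgag
JUP, -43, chr17:39942253-39942282, minus strand: cacctgccgagCAGGTGagcgcacggagtc
DSC2, -156, chr18:28682522-28682551, minus strand: caactttctgtCAGGTGggcctcaggcagc
DSG2, -232, chr18:29077897-29077926, plus strand: cgtcacggtccCAGGTGcgagtgcgagcgg
DSG2, -116, chr18:29078013-29078042, plus strand: cgcggcggccaCACCTGgagccgcgccttt
In the GENCODE annotation the *DSC2* and *DSG2* matches lie upstream of every transcript, the *DSP* matches in the untranslated first part of 1 of its 8 transcripts, and the *JUP* matches in an untranslated exon of 2 of its 12 transcripts and in an intron of others. A match is a stretch of letters and not a measured binding site, and binding was not measured in these libraries. The study did measure TBX3 binding in 21NT transfectants, by chromatin immunoprecipitation on promoter arrays. Those data were not used here.

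Other desmosomal genes were examined in a list of 9, of which 4 were tested. Of the 4, 1 was differentially expressed with each isoform, where 21.5% and 21.2% of all genes tested were. *PPL* encodes periplakin, a plakin of the cornified envelope that also sits at desmosomes. It was 50.6 ± 1.91 RPKM in EV, 16.6 ± 2.30 in TBX3iso1 and 16.9 ± 2.55 in TBX3iso2 cells, and was the 1 differentially expressed gene of the list, with log2 fold changes of -1.61 (adjusted p = 8.13e-05) and -1.58 (adjusted p = 8.82e-05). Its partner *EVPL*, envoplakin, was 16.2 ± 0.465, 12.8 ± 2.04 and 16.1 ± 0.444 RPKM, lower with TBX3iso1 by adjusted p (-0.34, adjusted p = 0.0375) and at -0.01 with TBX3iso2 (adjusted p = 0.963). *PKP4*, a relative of the plakophilins, rose with TBX3iso2 (0.40, adjusted p = 0.00569) and was at 0.08 with TBX3iso1 (adjusted p = 0.465), and it was higher with TBX3iso2 than with TBX3iso1 by 0.32 (adjusted p = 0.0363). *PNN*, pinin, had values of 0.14 (adjusted p = 0.182) and 0.33 (adjusted p = 0.0125). *KAZN*, which encodes kazrin, a binding partner of periplakin, was 0.0762 ± 0.00825 RPKM in EV, 0.552 ± 0.0188 in TBX3iso1 and 0.487 ± 0.0272 in TBX3iso2 cells, under the filter. Tested without it, *KAZN* rose by 1.89 (adjusted p = 0.00185) and 1.74 (adjusted p = 0.00202). *CDSN*, corneodesmosin of the skin, was at most 0.0456 RPKM, and *DSC1*, *DSG1* and *DSG4* stood near 0.

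Genes of hemidesmosomes, which anchor keratin to the basement membrane, were described 1 by 1 for 8 genes, with no median, since the list is not reported whole. Of the 7 tested among them, 3 were differentially expressed, all higher and the same 3 with both isoforms, where 21.5% and 21.2% of all genes were in either direction. *LAMB3*, a laminin chain of epithelial basement membranes, was 108 ± 2.03 RPKM in EV, with log2 fold changes of 0.92 with TBX3iso1 (adjusted p = 0.000208) and 0.92 with TBX3iso2 (adjusted p = 0.000204). *LAMA3*, another chain, was 20.0 ± 0.640 RPKM in EV, with log2 fold changes of 1.20 (adjusted p = 0.000493) and 0.74 (adjusted p = 0.00421). *ITGA6*, an integrin that binds laminin, rose by 0.98 (adjusted p = 0.000344) and 0.78 (adjusted p = 0.000912). The other genes tested, *ITGB4*, *DST*, *PLEC* and *CD151*, passed neither threshold with either isoform, and *COL17A1*, a collagen of hemidesmosomes, was under the filter at 0.116 ± 0.0162 RPKM in EV, 0.334 ± 0.0465 in TBX3iso1 and 0.296 ± 0.0202 in TBX3iso2 cells. Tested without it, *COL17A1* rose by 1.00 (adjusted p = 0.00971) and 0.87 (adjusted p = 0.0134).

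Adherens junction genes and keratins, the neighbours of the desmosome at the membrane and in the cytoplasm, moved both ways. Of 11 adherens junction genes, all tested, 1 was differentially expressed upwards and 1 downwards with each isoform. Of all genes tested, 21.5% were with TBX3iso1 and 21.2% with TBX3iso2, in either direction. By adjusted p alone, 1 was higher and 5 lower in TBX3iso1 cells (44.8% of all genes in either direction). In TBX3iso2 cells 1 was higher and 4 lower (45.5% of all genes). The medians were -0.25 with TBX3iso1 and -0.22 with TBX3iso2. *PVRL3*, nectin 3, was higher with both (0.87, adjusted p = 0.00120, and 0.61, adjusted p = 0.00590). *CDH1*, E-cadherin, was lower with TBX3iso1 (-0.70, adjusted p = 0.00148) and, under 1.5-fold, with TBX3iso2 (-0.51, adjusted p = 0.00592). *PVRL4*, nectin 4, was lower with TBX3iso2 (-1.26, adjusted p = 7.58e-05) and, under 1.5-fold, with TBX3iso1 (-0.55, adjusted p = 0.00336), and the isoforms differed in it (-0.71, adjusted p = 0.00415). Of 10 keratins tested from a list of 11, TBX3iso1 cells had 4 differentially expressed upwards and 1 downwards (21.5% of all genes in either direction). TBX3iso2 cells had 2 each way (21.2% of all genes), and the medians were 0.03 and 0.33. *KRT5*, a basal keratin, rose from 2.83 ± 0.139 RPKM to 6.64 ± 0.241 and 6.87 ± 0.170 RPKM (1.20, adjusted p = 6.76e-05, and 1.25, adjusted p = 5.79e-05). *KRT16*, a keratin of stressed epidermis, rose by 1.23 (adjusted p = 0.000400) and 0.69 (adjusted p = 0.00547). *KRT15*, another basal keratin, fell (-1.10, adjusted p = 0.000891, and -1.47, adjusted p = 0.000233). *KRT6B* was lower with TBX3iso2 than with TBX3iso1 (-0.76, adjusted p = 0.0178).

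Transcription factors known for desmosomal and epithelial genes had lower medians than the other lists whose medians are given, -0.60 with TBX3iso1 and -0.46 with TBX3iso2 over the 14 tested of 16. Differential expression was found upwards for 4 and downwards for 7 in TBX3iso1 cells, and for 3 and 5 in TBX3iso2 cells. Over all genes tested it was found, in either direction, for 21.5% and 21.2%. *TP63* encodes p63, which controls *PERP* and other genes of stratified epithelium. It fell, with log2 fold changes of -3.16 (adjusted p = 2.84e-05) and -3.11 (adjusted p = 2.95e-05), whereas *PERP* rose with TBX3iso1. *GRHL1*, a grainyhead factor known to act on the desmoglein gene *DSG1*, fell from 8.24 ± 0.627 RPKM to 2.26 ± 0.0370 and 2.96 ± 0.254 RPKM (-1.82, adjusted p = 2.53e-05, and -1.45, adjusted p = 6.45e-05). *OVOL1*, a factor of epithelial differentiation, rose by 1.08 (adjusted p = 0.000133) and 1.21 (adjusted p = 7.99e-05). Of the EMT factors, *SNAI2*, which encodes SLUG, rose by 1.14 (adjusted p = 5.23e-05) and 0.65 (adjusted p = 0.000616). *SNAI1* fell (-1.55, adjusted p = 0.000172, and -1.12, adjusted p = 0.000724), as did *TWIST1* (-0.73, adjusted p = 0.000309, and -1.16, adjusted p = 4.16e-05). The study reported *TWIST1* as up-regulated with TBX3 overexpression, with western blots of protein among its evidence. The *TWIST1* RNA here went the other way, and the reason was not tested. *LEF1*, a partner of beta-catenin, rose by 0.60 (adjusted p = 0.00879) and 0.79 (adjusted p = 0.00257). No test of these lists as sets was made.

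**Figure D5:**
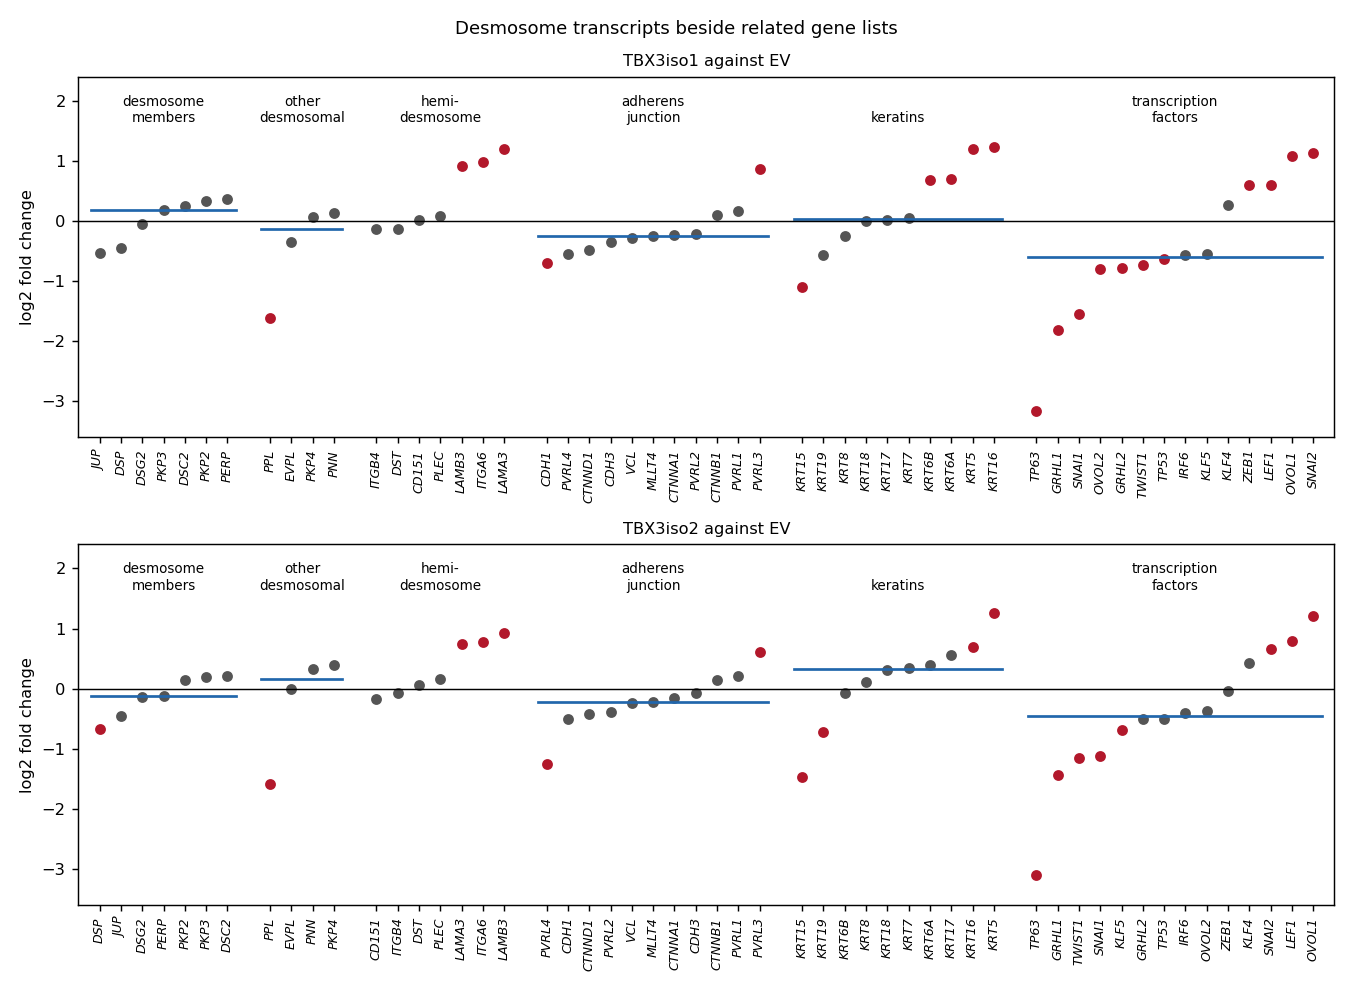
Log2 fold change of each gene tested in the 6 lists, for TBX3iso1 against EV (top) and TBX3iso2 against EV (bottom), sorted within each list, with red points for differential expression and blue lines at the list's median, drawn for all lists but the hemidesmosome genes. The 7 desmosome transcripts stay between -0.67 and 0.37, while other lists hold genes from -3.16 to 1.25.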

How the data were processed

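The authors sequenced stranded mRNA libraries as paired ends, used TopHat in Galaxy to map them on hg19 and made RPKM values with Partek Genomics Suite. The deposited values are RPKM on the linear scale, 1 per gene and library, with the alignments of each library, and no gene counts, so the precision of depth for a gene was not computed. Software versions and the gene annotation are not given in the sources used here. Values were taken to log2 after adding 0.1 RPKM. Genes averaging 0.5 RPKM or more (12805 of 20824) entered limma 3.58.1, run in R 4.3.3 with a trend, 1 mean per line over 6 libraries and Benjamini-Hochberg adjustment, a step tested on simulated data. Differential expression required a change over 1.5-fold at an adjusted p under 0.05. The deviations of libraries with the same number correlated by 0.22 for EV and TBX3iso1, 0.114 for EV and TBX3iso2 and 0.499 for the isoforms. The main fit did not pair libraries by number, which entered only the alternative fits with a replicate block. The labels do not say what the number marks. All members were named. Of other lists, genes differentially expressed with both isoforms in 1 direction or between the isoforms, and all other desmosomal genes and epithelial markers, were named by rule, with the exceptions of *CDH1* as a call with TBX3iso1, *ITGB4*, *DST*, *PLEC*, *CD151*, *COL17A1*, *B4GALT6* and the leading markers of other cell types, named after their values were seen. A gene of the hemidesmosome list is not reported here and was left out of the list. Members and lists were chosen with earlier results of these data known. Positions are from GENCODE on GRCh37. Figures were drawn with matplotlib 3.10.9. Alternatives were other pseudocounts, filters, scalings and models, the replicate block and leaving out each library.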

Additional observations from a re-analysis of the deposited data

Results flagged for a closer look

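*PERP* was flagged because its change differed between the isoforms in a direct test. Its log2 fold change of TBX3iso2 against TBX3iso1 was -0.49 (limma adjusted p = 0.00536), with both TBX3iso1 libraries above and both TBX3iso2 libraries below the EV libraries. Over the alternatives it ran from -0.54 to -0.44, with an adjusted p above 0.05 in the ordinary linear models (0.0521 on log2 and 0.0513 on unlogged RPKM) and below it in the others run. Tests for a single deviating library need at least 4 libraries in a group and were not possible here.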

How the results depend on the processing

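Of the member fold changes recomputed, 354 kept their direction and call, 21 lost a call, 2 gained one and 13 changed sign, none of them called. In several alternatives, such as other filters, the replicate block and the ordinary linear model on log2, the fold change could not move. A kept direction there, and a kept call for a member under 1.5-fold, was fixed in advance. Median-ratio scaling moved *DSG2* with TBX3iso1 to 0.012 and *PKP3* between the isoforms to -0.050, and quantile normalization moved the latter to -0.040. With a library left out, *DSG2* ran from -0.23 to 0.15 with TBX3iso1, -0.38 to 0.089 with TBX3iso2 and -0.34 to 0.13 between the isoforms, *PKP2* with TBX3iso2 from -0.0063 to 0.29, and, between the isoforms, *DSC2* from -0.20 to 0.10, *DSP* from -0.50 to 0.069 and *PKP3* from -0.087 to 0.10. With TBX3iso1, 1 member was differentially expressed without the filter (*PKP1*) and 1 under quantile normalization (*JUP*, -0.62), and leaving out a library gave 0 to 1. With TBX3iso2, ordinary linear models on log2 and on unlogged RPKM gave 0 and 0 (*DSP*, adjusted p = 0.183 and 0.146), and leaving out a library gave 0 to 1, where the library left alone in its line was assumed to vary like the other lines. Without the filter the count was 1, *PKP1* in place of *DSP* (adjusted p = 0.0953). Between the isoforms it was 1 without the filter (*PKP1*). By adjusted p alone, the TBX3iso1 count was 4 under quantile normalization, 5 with only the 2 lines compared, 5 with the replicate block and 1 to 5 with a library left out. The TBX3iso2 count was 4 under quantile normalization, 1 and 1 with the ordinary models and 1 to 3 with a library left out, and the count between the isoforms was 2 without the filter and 0 and 0 with the ordinary models. The block moved no other call of a tested member, and *PKP1* without the filter lost its call between the isoforms with it (adjusted p = 0.0583). Alternatives for *PKP1* and for the counts by adjusted p were chosen after seeing the data. For these counts, the share of all genes passing in the same alternative fit is given only for the replicate block. With the block that share was 55.9% with TBX3iso1, against 44.8% in the main fit. Whether a higher count of members goes beyond a higher share of all genes was not tested. Over all genes, a pseudocount of 1 RPKM gave 1812 genes with TBX3iso1, against 2757. Between the isoforms, where 805 were called, it gave 419, a filter at 2 RPKM 504, and the ordinary models 199 and 176. The split of calls moved with the scaling: 955 higher and 1802 lower with TBX3iso1 became 1259 and 1313 under quantile normalization, 1145 and 1575 with TBX3iso2 became 1315 and 1338, and 444 and 361 between the isoforms became 344 and 447 with median-ratio scaling. The cause was not tested.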
